A study of Mus musculus with 6 samples.

Results

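The Hippo pathway set described here comprised 35 mouse genes of 35275 gene identifiers in the deposited table. They were taken from a list of pathway kinases, adaptors, transcriptional partners and known target genes, by matching each symbol to its Ensembl identifier, and all 35 were found. Ccn1 and Ccn2 are also known as Cyr61 and Ctgf. The list fell into 4 roles. It held 9 genes for YAP, TAZ and their TEAD and VGLL partners, 8 for the core kinase cassette, 10 for upstream adaptors and YAP-binding scaffolds, and 8 target genes.

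The study measured RNA from suprabasal keratinocytes, the differentiating cells above the basal layer of the epidermis, in 3 control and 3 K10-spastin libraries. All came from CD1 IGS mouse embryos at E16.5 (embryonic day), with doxycycline chow given to the dams from E14.5. The labels name the alleles K10-rtTA, TRE-H2B-GFP and TRE-Spastin. The K10 promoter drives the doxycycline-dependent activator rtTA in suprabasal cells. TRE-H2B-GFP then gives a fluorescent histone, by which back-skin epidermal cells of both groups were sorted, and TRE-Spastin gives spastin, an enzyme that severs microtubules. Which transgenes the control embryos carried, and how many embryos went into a library, were not given in the sources used here. The labels call the RNA samples independent, without saying of which animals or litters, so the p-values measure the spread between these libraries.

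In the Hippo pathway, the kinases MST1 and MST2 with their partner SAV1 activate LATS1 and LATS2 with MOB1. LATS kinases phosphorylate YAP and TAZ, which are then held in the cytoplasm or degraded. Unphosphorylated YAP and TAZ enter the nucleus and bind TEAD proteins to switch on genes such as Ccn1 and Ccn2. The pathway responds to cell contacts, polarity and tension on the cytoskeleton, and in the epidermis nuclear YAP is best known in the proliferating basal layer. Since control runs largely through phosphorylation and location, RNA levels measure the amount of each component's transcript and not the pathway's activity.

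TEAD proteins bind the M-CAT motif, whose core letters are CATTCC. Promoter sequence, from 250 bases before to 50 bases after the annotated start, was taken from RefSeq on build GRCm38.p6. Of the 35 genes, 29 had an entry, with 34 promoters in all, and the 6 without one were Tead1, Tead4, Stk3, Limd1, Ccn2 and Nuak2. CATTCC on either strand was present in 19 of these 34 (55.9%), belonging to 17 genes, against 4817 of 32851 promoters in the whole table (14.7%). Of the 6 target genes with an entry, 4 held it: Ccn1, Axl, Ankrd1 and Crim1. The AP-1 motif TGANTCA, searched on both strands, was present in 1 of the 34 promoters (2.94%), that of F3, against 7.81% of all. The SRF CArG box was present in none of the 34, against 1.63% of all. F3 held no CATTCC, so no CATTCC and AP-1 matches overlapped in these promoters. A match describes letters only and is not a binding site.

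The upstream bases of 4 target promoters are printed 5′ to 3′ on the gene's strand, up to the last base before the start, because they show each kind of match among the targets and a promoter without one. Ccn1 and Axl carry CATTCC or its reverse complement, F3 carries the AP-1 letters, and Igfbp3, the target that fell, carries none of them. Capitals mark the matches. Ccn1 lies on chromosome 3 (minus strand), Axl on chromosome 7 (minus), F3 on chromosome 3 (plus) and Igfbp3 on chromosome 11 (minus).
Ccn1, chr3:145649986-145650235: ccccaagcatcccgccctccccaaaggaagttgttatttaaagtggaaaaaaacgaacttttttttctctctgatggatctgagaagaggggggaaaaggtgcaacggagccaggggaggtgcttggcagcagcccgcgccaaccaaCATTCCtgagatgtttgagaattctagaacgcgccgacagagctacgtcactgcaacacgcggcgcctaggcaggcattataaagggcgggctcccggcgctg
Axl, chr7:25788734-25788983: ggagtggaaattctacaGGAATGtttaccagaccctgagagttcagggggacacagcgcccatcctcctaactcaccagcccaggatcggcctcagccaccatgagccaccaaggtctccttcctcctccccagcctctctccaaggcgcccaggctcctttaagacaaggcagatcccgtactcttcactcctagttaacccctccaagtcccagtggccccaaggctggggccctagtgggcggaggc
F3, chr3:121723287-121723536: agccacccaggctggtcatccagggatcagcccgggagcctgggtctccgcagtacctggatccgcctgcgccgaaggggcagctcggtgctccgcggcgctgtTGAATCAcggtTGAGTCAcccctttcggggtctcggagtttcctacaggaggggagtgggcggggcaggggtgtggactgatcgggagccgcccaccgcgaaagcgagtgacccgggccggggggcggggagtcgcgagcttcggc
Igfbp3, chr11:7213924-7214173: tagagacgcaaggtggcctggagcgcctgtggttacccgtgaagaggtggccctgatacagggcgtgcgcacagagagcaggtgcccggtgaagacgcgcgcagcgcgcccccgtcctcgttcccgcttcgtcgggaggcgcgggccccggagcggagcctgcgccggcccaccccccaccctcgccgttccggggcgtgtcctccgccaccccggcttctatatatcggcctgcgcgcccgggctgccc
The Ccn1 match starts at position −103 and the Axl match at −233, counted from the annotated start. The 2 matches in F3 start at −146 and −135.

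**Figure D1:**
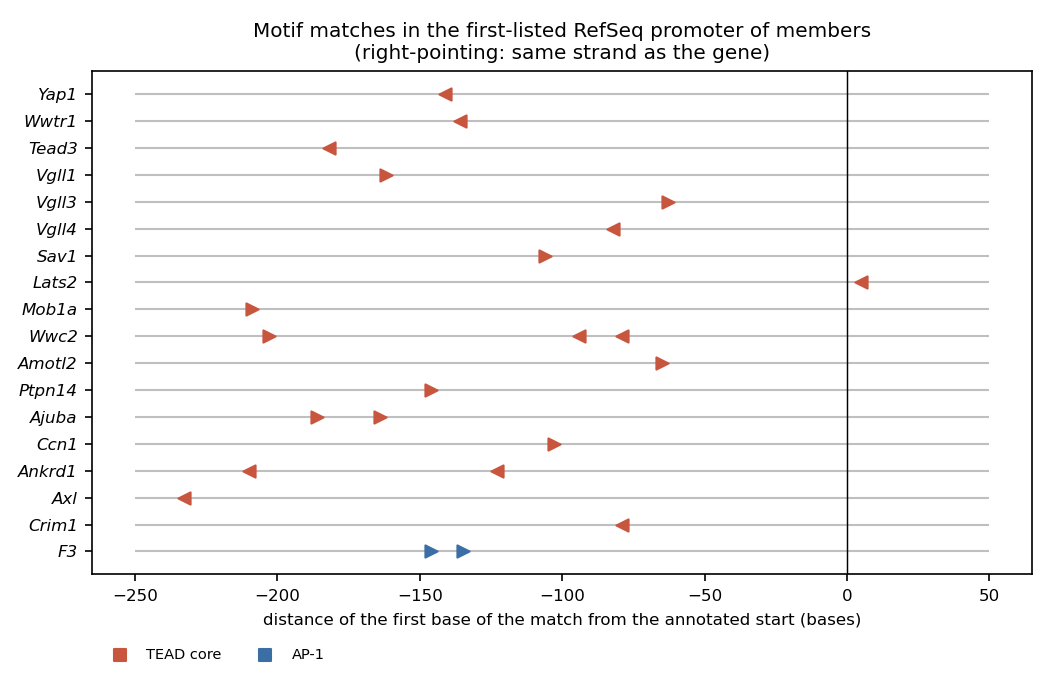
Positions of CATTCC (TEAD M-CAT core) and TGANTCA (AP-1) letters in the first-listed RefSeq promoter of each member with a match, 1 line per gene. The x axis gives the distance from the annotated start in bases. Over all 34 promoters, which are not all drawn, CATTCC matches occur in 19 and AP-1 letters only in that of F3.

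Library depth, read from the steps between low FPKM values, lay between 16.0 and 22.5 M (mega) fragments, and 10342 to 11190 genes per library reached 1 FPKM (fragments per kilobase of transcript per M fragments). At these depths, 3 fragments in a 1 kb transcript correspond to 0.134 to 0.188 FPKM. Spast, the gene of the induced transgene, stood at 21.2, 24.0 and 21.4 FPKM in control libraries and at 1431, 639 and 213 FPKM in the K10-spastin libraries. It rose by 4.65 ± 0.60 on the log2 scale (SE, limma adjusted p = 0.00865), with an uneven level between the induced libraries. The suprabasal keratin Krt10 lay between 23698 and 32513 FPKM in the controls and between 13075 and 17318 FPKM in the K10-spastin libraries, and fell by 0.81 (limma adjusted p = 0.0438), the 1 of 6 spinous markers called. Over the other processing settings the Krt10 change lay between −0.91 and −0.07. Krt1 lay between 19313 and 28595 FPKM and between 11406 and 17008 FPKM, without overlap (change −0.69, limma adjusted p = 0.0838). The spinous markers were split in direction: Sbsn, Dsc1 and Krtdap changed by 0.75, 0.61 and 0.21, and Dsg1a by −0.34, with overlapping groups and no call. Of 6 granular keratinocyte markers, Ivl rose by 2.54 (18.4 to 63.3 FPKM and 113 to 405 FPKM, limma adjusted p = 0.0321) and Tgm1 by 1.96 (53.6 to 80.5 FPKM and 183 to 403 FPKM, limma adjusted p = 0.0126). The calls of Krt10, Ivl, Krt15 and Dcn, a fibroblast marker, were each lost without any 1 of the controls, and that of Tgm1 without control 3. Calls over all tested genes also dropped, from 1222 to 449, 212 and 145 without control 1, 2 and 3. The part of the shift in marker levels in the members' changes was not tested. Markers of basal keratinocytes summed to 4147 to 7235 FPKM in the controls and 2533 to 4774 FPKM in the K10-spastin libraries, and Krt15 was the 1 of 7 called (change −3.05). Without a call, Krt5, Trp63, Col17a1 and Itga6 changed by −0.78, −0.55, −2.25 and −1.0, and Krt14 and Itgb4 by 0.07 and 0.38. The 5 endothelial markers were below 0.2 FPKM in every library. The 7 immune markers summed to 0.305 to 2.6 FPKM, with Cd207 and Cd3e at 0 and Cd74, the highest, at most 1.0 FPKM. The 6 melanocyte markers summed to 3.61 to 15.2 FPKM in the controls, 23.8 FPKM in K10-spastin 2, and 1.91 and 2.34 FPKM in the other K10-spastin libraries. The 4 erythroid markers summed to 4.48, 38.2 and 159 FPKM in controls 1, 2 and 3 and to 2.25 to 11.0 FPKM in the K10-spastin libraries. The 5 periderm and simple epithelial markers summed to 6.65, 28.3 and 39.1 FPKM and to 5.64 to 15.8 FPKM. The K10-spastin 1 library, with the highest Spast, was the lowest of its group for 63.7% of all tested genes. Its median-of-ratios scaling factor was 0.811, against 1.01 to 1.08 in the other libraries, and the values tested were not scaled for this. Members whose change depended most on this library are therefore also given without it.

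Changes are differences of the mean log2(FPKM + 1), K10-spastin minus control, tested with limma over the 11071 genes whose mean reached 1 FPKM. This scale understates changes of low genes. A gene was called at a Benjamini-Hochberg adjusted p under 0.05. Of the 35 genes, 32 passed the filter on low values. Vgll1 was listed at 0 in every library, Amot lay between 0.11 and 0.17 FPKM, and Ankrd1 between 0.177 and 0.445 FPKM, so these 3 were not tested.

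Among the 32 tested genes, Tead4 and Ccn2 rose, Igfbp3 fell, and 29 did not pass the test. The 2 higher calls were 6.25% of the tested members, where 5.14% of all tested genes were called higher. The single lower call was 3.12% of them, where 5.9% of all were called lower. The median change was 0.06 over the tested members and −0.09 over all tested genes. Scaling the libraries by the median of ratios moved the median of all genes to 0.04, and with it Axl and Wwc1 were also called higher and Vgll4 lower. Calls over all tested genes went from 1222 to 1450 with this scaling. The K10-spastin libraries lay entirely above the controls for 9 members and entirely below them for 8, and the groups overlapped for 15. Over all genes, 15.6% lay entirely above and 24.8% entirely below. For 19 of the 32 members (59.4%) the 95% confidence interval of the change stayed within 2-fold either way, against 62.6% of all tested genes. In sorted bulk RNA, fewer cells of a type and less RNA per cell cannot be told apart.

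**Figure D2:**
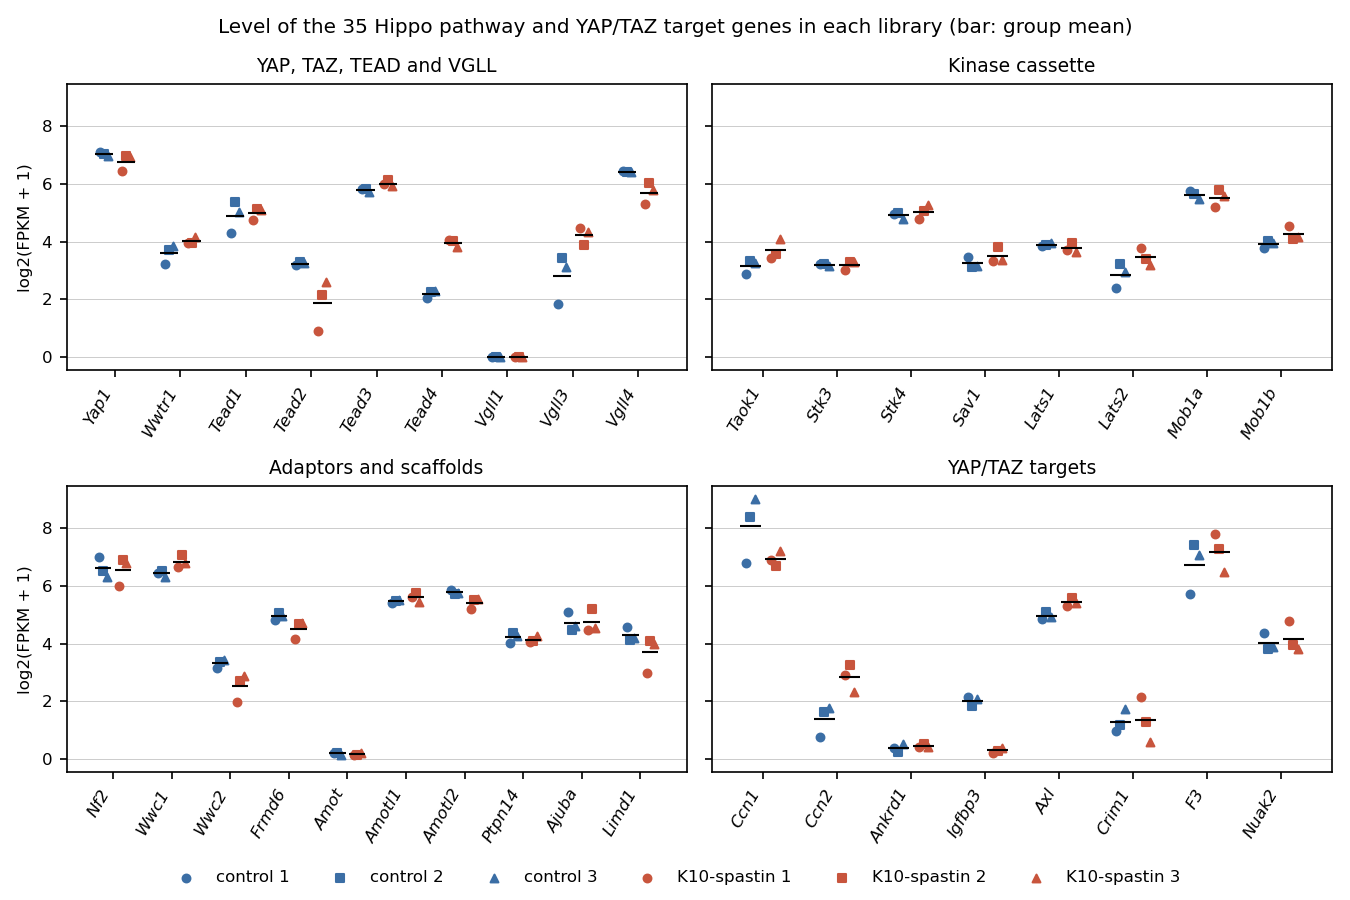
FPKM of the members in each of the 6 libraries on a log axis, with control and K10-spastin libraries as separate points and genes grouped by role. Tead4 and Igfbp3 show groups far apart, while 6 of the 8 core kinase cassette genes show overlapping groups.

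**Figure D3:**
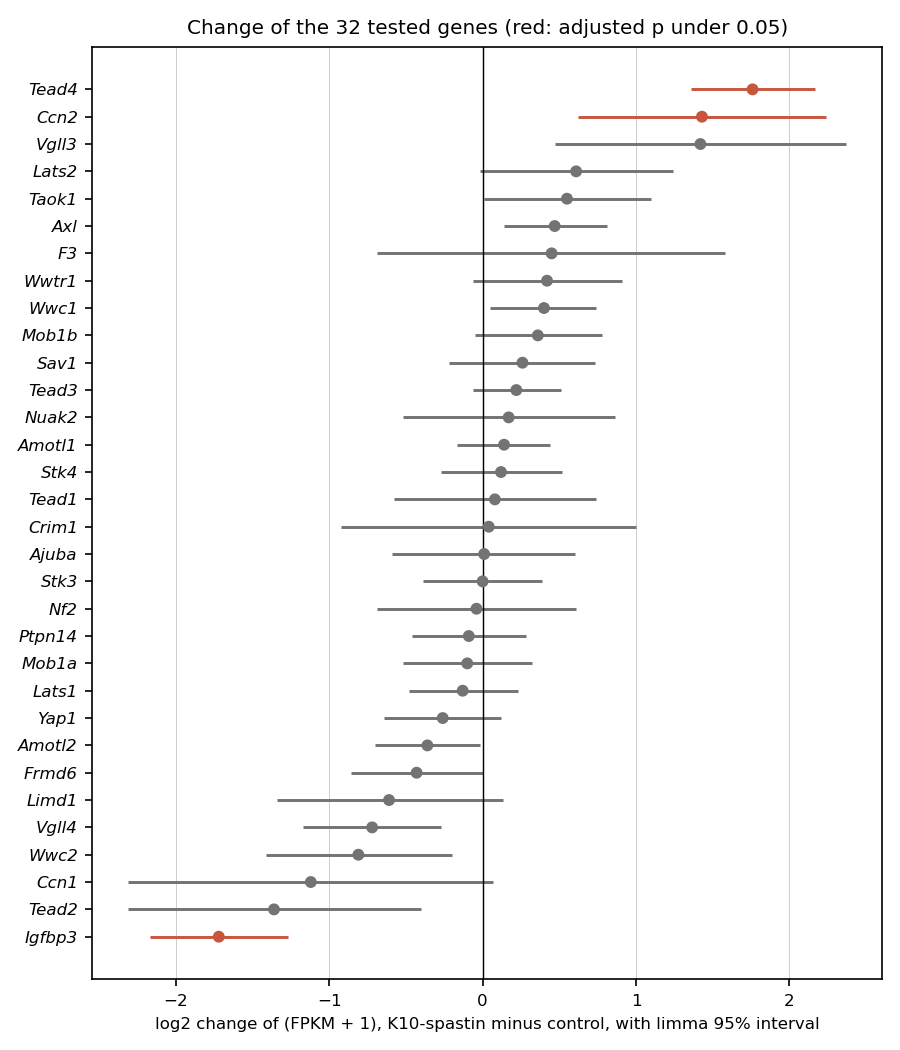
log2 change of each tested member (K10-spastin minus control, on log2(FPKM + 1)) with its 95% confidence interval, ordered by the change. The intervals are not adjusted for the number of genes tested. Those of the called genes, Tead4, Ccn2 and Igfbp3, lie clear of 0, as do those of uncalled members such as Tead2, Vgll3 and Vgll4.

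Tead4 encodes one of the TEAD transcription factors through which YAP and TAZ reach DNA. Its level was 3.11, 3.74 and 3.94 FPKM in the controls and 15.6, 15.3 and 12.9 FPKM in the K10-spastin libraries. Every K10-spastin library was over 3 times the highest control. The mean went from 3.6 ± 0.437 to 14.6 ± 1.45 FPKM (SD, n = 3 each), a ratio of 4.05. On the log2(FPKM + 1) scale Tead4 rose by 1.76 ± 0.17 (SE, 95% interval 1.36 to 2.17, limma adjusted p = 0.00438). It was called under all 17 other processing settings tried.

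The other TEAD genes did not pass the test. Tead2 stood at 8.07, 8.73 and 8.56 FPKM in control libraries and at 0.877, 3.40 and 5.09 FPKM in the K10-spastin libraries. The groups did not overlap, and the K10-spastin libraries were widely spread. The change was −1.36 ± 0.41 (SE, limma adjusted p = 0.0723), and it passed the test without K10-spastin 1 (−0.87, limma adjusted p = 0.0367) or without K10-spastin 3 (−1.72, limma adjusted p = 0.0329). Tead3, the most abundant of the family, ranged from 51.2 to 55.8 FPKM in the controls and from 59.1 to 69.0 FPKM in the K10-spastin libraries (change 0.22, limma adjusted p = 0.253). Tead1 ranged from 18.6 to 40.7 FPKM and from 25.7 to 33.8 FPKM, with overlapping groups (change 0.08, limma adjusted p = 0.876).

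FPKM is per length, so the family can be added up. Tead4 made up 3.64%, 3.44% and 4.13% of the summed TEAD FPKM in the controls and 14.9%, 12.6% and 11.7% in the K10-spastin libraries (exact permutation p = 0.1, the smallest possible with 3 libraries a group). The share of Tead2 was 9.48%, 8.01% and 8.97% in the controls and 0.839%, 2.80% and 4.63% in the K10-spastin libraries. Tead3 held 56.6% and 56.7% of the sum on average, and Tead1 30.8% and 27.4%. The summed TEAD level was 85.2, 109 and 95.4 FPKM in the controls and 104, 121 and 110.0 FPKM in the K10-spastin libraries, with overlapping groups (exact permutation p = 0.2). The shares of Tead4 and Tead2 did not overlap between the groups, whereas the summed level did.

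**Figure D4:**
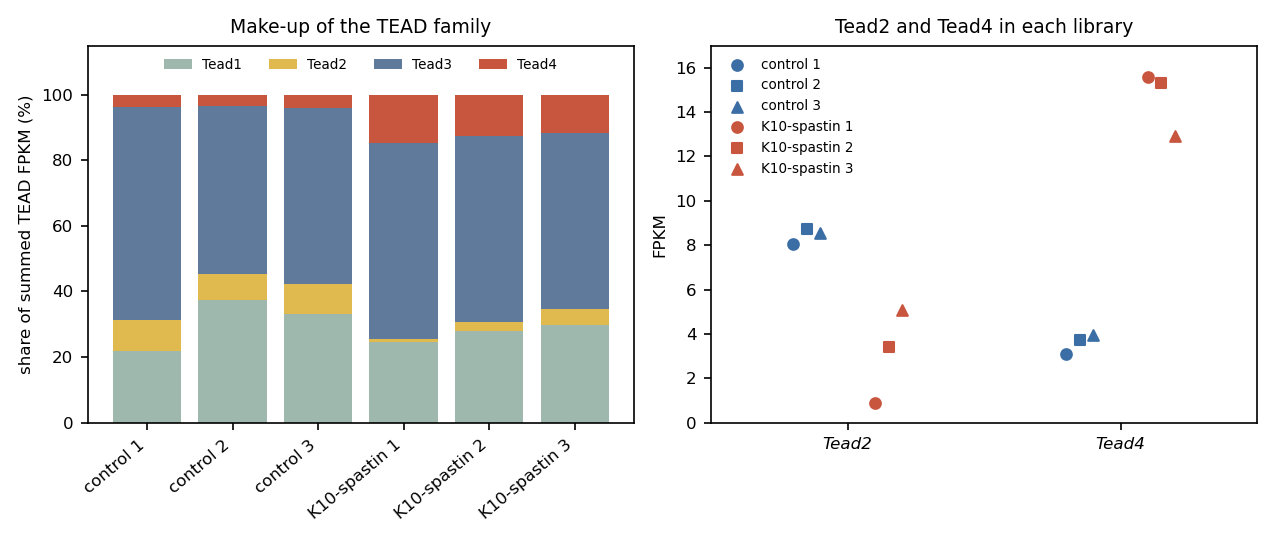
Left, shares of Tead1, Tead2, Tead3 and Tead4 in the summed TEAD FPKM of each library, in percent, as stacked bars starting at 0. Right, FPKM of Tead2 and Tead4 in each library. Tead4 takes 11.7% to 14.9% of the bar in K10-spastin libraries and 3.44% to 4.13% in controls, and Tead3 is the largest part in every library.

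Yap1 encodes YAP, the main coactivator here by transcript level. It stood at 137, 129 and 124 FPKM in control libraries and at 86.1, 123 and 119.8 FPKM in the K10-spastin libraries. All 3 K10-spastin libraries lay below the controls, 2 of them by less than the spread between controls. The change was −0.26 ± 0.16 (SE, 95% interval −0.64 to 0.12, limma adjusted p = 0.306), and −0.10 without K10-spastin 1. Wwtr1, which encodes TAZ, stood at 8.31, 12.2 and 13.4 FPKM and between 14.4 and 16.9 FPKM. Its groups did not overlap, and its change of 0.42 ± 0.21 did not pass the test (SE, limma adjusted p = 0.203). Wwtr1 was 5.72% to 9.74% of the summed Yap1 and Wwtr1 FPKM in the controls and 10.5% to 14.4% in the K10-spastin libraries.

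VGLL proteins compete with YAP and TAZ for TEAD. Vgll4, the abundant repressor of the family, stood at 85.6, 83.2 and 83.3 FPKM in control libraries and at 38.1, 63.6 and 53.7 FPKM in the K10-spastin libraries. The K10-spastin libraries were all lower, and K10-spastin 1 was the lowest. The change of −0.72 ± 0.19 lay just short of the threshold (SE, 95% interval −1.17 to −0.27, limma adjusted p = 0.0551). It was called without K10-spastin 1 (−0.52, limma adjusted p = 0.0367) or without K10-spastin 2 (−0.88, limma adjusted p = 0.0438). Vgll3, another TEAD cofactor, stood at 2.62, 9.70 and 7.67 FPKM in control libraries and at 21.1, 13.6 and 19.3 FPKM in the K10-spastin libraries. These groups did not overlap either, with a change of 1.42 ± 0.41 that did not pass the test (SE, limma adjusted p = 0.0626).

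None of the 8 core kinase cassette genes passed the test, and their median change was 0.19. Taok1, a kinase that activates MST and LATS kinases, stood at 6.35, 9.02 and 8.48 FPKM in control libraries and at 9.73, 10.9 and 16.2 FPKM in the K10-spastin libraries. All K10-spastin libraries lay above the controls (change 0.55 ± 0.23, SE, limma adjusted p = 0.156). Lats2 stood at 4.20, 8.42 and 6.64 FPKM and at 12.6, 9.64 and 8.20 FPKM. Its groups overlapped by 1 library (change 0.61 ± 0.27, SE, 95% interval −0.02 to 1.24, limma adjusted p = 0.169). The related Lats1 stayed between 11.6 and 14.4 FPKM in all 6 libraries. Lats2 made up 23.7%, 38.0% and 31.5% of the summed LATS FPKM in the controls and 50.8%, 40.3% and 41.4% in the K10-spastin libraries.

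The remaining cassette genes were close between groups or overlapping. Mob1a, the abundant form of the LATS cofactor MOB1, stood at 53.0, 48.8 and 43.6 FPKM in control libraries and at 35.9, 54.1 and 47.0 FPKM in the K10-spastin libraries. Mob1b, the other form, ranged from 12.7 to 15.1 FPKM and from 16.2 to 22.5 FPKM, without overlap (change 0.36, limma adjusted p = 0.201). Stk4, which encodes MST1, stood at 30.2, 30.9 and 26.5 FPKM and at 26.5, 32 and 38.0 FPKM (change 0.12 ± 0.17, SE, limma adjusted p = 0.664). Stk3, which encodes MST2, lay between 7.02 and 8.93 FPKM in all libraries, with a change of 0.00. Sav1, the scaffold that holds MST kinases active, changed by 0.26 (limma adjusted p = 0.422).

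Of the 10 adaptors and scaffolds, 9 were tested and none passed, with a median change of −0.09. K10-spastin 1 was the lowest library of its group for 8 of the 9 (88.9%), against 63.7% of all tested genes. Wwc1 encodes KIBRA, which works with NF2 to activate LATS at the membrane. It stood at 86.9, 91.4 and 78.9 FPKM in control libraries and at 99.1, 133 and 109 FPKM in the K10-spastin libraries, all above the controls (change 0.40 ± 0.15, SE, limma adjusted p = 0.116). Its relative Wwc2 stood at 7.96, 9.36 and 9.78 FPKM and at 2.98, 5.46 and 6.28 FPKM, all below them (change −0.81 ± 0.26, SE, limma adjusted p = 0.0816). Nf2, which encodes merlin, stood at 126, 89.7 and 78.9 FPKM and at 62.9, 118 and 109.8 FPKM. Its groups overlapped widely (change −0.04 ± 0.28, SE, limma adjusted p = 0.932), and the 95% interval of −0.69 to 0.61 covered changes of either sign.

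Among the other scaffolds, Amotl2, an angiomotin that binds YAP, ranged from 51.8 to 57.3 FPKM in the controls and from 35.4 to 46.1 FPKM in the K10-spastin libraries (change −0.36 ± 0.15, SE, limma adjusted p = 0.143). Frmd6, a FERM-domain protein upstream of the kinases, ranged from 27.5 to 32.4 and from 17 to 25.1 FPKM (change −0.43, limma adjusted p = 0.161). Limd1, a LIM protein that can hold LATS inactive, ranged from 16.6 to 22.8 and from 6.91 to 16.2 FPKM (change −0.61 ± 0.31, SE, limma adjusted p = 0.227). In these 3 the groups did not overlap and no call was made. Without K10-spastin 1, the lowest library for each, the changes were −0.24 for Amotl2, −0.25 for Frmd6 and −0.25 for Limd1. Amotl1, Ptpn14, a phosphatase that binds YAP, and Ajuba, a LIM protein related to Limd1, changed by 0.14, −0.09 and 0.01, with overlapping groups.

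The 8 targets were 7 tested genes and Ankrd1, with 1 higher, 1 lower and a median change of 0.17. Igfbp3 encodes a secreted binding protein for insulin-like growth factors. It stood at 3.40, 2.57 and 3.25 FPKM in control libraries and at 0.168, 0.223 and 0.307 FPKM in the K10-spastin libraries, close to the level of 3 fragments per kilobase. The mean fell from 3.07 ± 0.442 to 0.232 ± 0.0702 FPKM (SD, n = 3 each), a ratio of 0.0756. On the log2(FPKM + 1) scale it fell by 1.72 ± 0.19 (SE, 95% interval −2.17 to −1.27, limma adjusted p = 0.00546), and it was called under all 16 other settings in which it was tested. Fibroblast markers also lay lower in the K10-spastin libraries. Their summed level was 181 to 295 FPKM in the controls and 58.4 to 135 FPKM in the K10-spastin libraries. Most of this sum was Postn, at 174, 198 and 253 FPKM in the controls and 57.6, 132 and 116 FPKM in K10-spastin. Postn was not called (limma adjusted p = 0.0626). Dcn was the 1 of 5 tested that was called lower. Col1a1, Col1a2 and Col3a1 also lay lower without overlap and were not called (changes −2.56, −1.39 and −1.93). Pdgfra lay below 0.2 FPKM in every library. The collagen gene Col1a1 stood at 0.724, 8.42 and 13.3 FPKM in controls 1, 2 and 3 and at most 0.0647 FPKM in the K10-spastin libraries. The part of these markers in the Igfbp3 result was not tested.

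Ccn1 and Ccn2 encode related matricellular proteins and are the usual readouts of YAP and TAZ. Ccn2 stood at 0.714, 2.11 and 2.42 FPKM in control libraries and at 6.45, 8.5 and 4.06 FPKM in the K10-spastin libraries, all above the controls. The mean went from 1.75 ± 0.911 to 6.34 ± 2.22 FPKM (SD, n = 3 each), a ratio of 3.62, and Ccn2 rose by 1.43 ± 0.34 on the log2 scale (SE, 95% interval 0.62 to 2.24, limma adjusted p = 0.0422). The call was lost without any 1 of the controls, without K10-spastin 1 or without K10-spastin 2, where the change was between 1.12 and 1.62 and the limma adjusted p between 0.0732 and 0.103. Ccn1 stood far higher, at 110, 333 and 508 FPKM in control libraries and at 119, 101 and 148 FPKM in the K10-spastin libraries. Control 1 lay within the K10-spastin range, and the other controls lay above it. The change of −1.12 ± 0.51 did not pass the test (SE, 95% interval −2.31 to 0.07, limma adjusted p = 0.178). Without control 1 it was −1.75 and was called (limma adjusted p = 0.0256). Some markers of other cell types were also low in control 1, higher in controls 2 and 3, and low in the K10-spastin libraries. Col1a1 stood at 0.724, 8.42 and 13.3 FPKM and at most 0.0647 FPKM. The periderm keratin Krt19 stood at 0.996, 9.29 and 10.5 FPKM and 0.989 to 2.11 FPKM, and the globin Hbb-bt at 0.759, 6.84 and 13.6 FPKM and 0.082 to 0.984 FPKM. Other markers did not follow this pattern. Krt7, of the periderm list, stood at 11.3 FPKM in K10-spastin 1, above controls 1 and 2 (4.07 and 10.4 FPKM). The melanocyte sum was highest in K10-spastin 2 (23.8 FPKM). The part of these markers in the Ccn1 values was not tested.

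Control 1 was the lowest control for 5 of the 7 tested targets (71.4%), against 32% of all tested genes. F3, which encodes tissue factor, stood at 52.0, 170 and 132 FPKM in control libraries and at 220.0, 153 and 89.0 FPKM in the K10-spastin libraries. The groups overlapped over most of their range (change 0.45 ± 0.48, SE, 95% interval −0.69 to 1.58, limma adjusted p = 0.569). Axl, a receptor tyrosine kinase, stood at 27.6, 33.5 and 29.4 FPKM and at 38.5, 46.6 and 41.5 FPKM. It had no overlap and a change of 0.47 ± 0.14 that missed the threshold (SE, limma adjusted p = 0.0736), with a call without K10-spastin 1 (0.53, limma adjusted p = 0.0496). Crim1, a transmembrane regulator of BMP signalling, ranged from 0.979 to 2.31 and from 0.50 to 3.42 FPKM, and Nuak2, an AMPK-related kinase, from 13.0 to 19.4 and from 12.9 to 26.6 FPKM. Both had overlapping groups, with changes of 0.04 and 0.17.

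Related genes were compared within a library by the log2 ratio of their values plus 1, in 9 pairs. With 3 libraries a group, the exact permutation p has a floor of 0.1. The Ccn2/Ccn1 ratio moved from −6.66 ± 0.60 to −4.11 ± 0.73 (SD, n = 3 each), a difference of 2.55 without overlap (exact permutation p = 0.1, adjusted over the pairs 0.15). The Wwc1/Wwc2 ratio moved from 3.11 ± 0.21 to 4.32 ± 0.37, a difference of 1.2 (exact permutation p = 0.1). The Wwtr1/Yap1, Lats2/Lats1 and Ajuba/Limd1 ratios lay higher in K10-spastin by 0.69, 0.74 and 0.61, and Amotl2/Amotl1 lay lower (difference −0.50), each without overlap. Mob1b/Mob1a (0.46), Stk4/Stk3 (0.12) and Tead1/Tead3 (−0.15) overlapped between groups. No pair passed the adjusted threshold, which this design cannot reach.

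**Figure D5:**
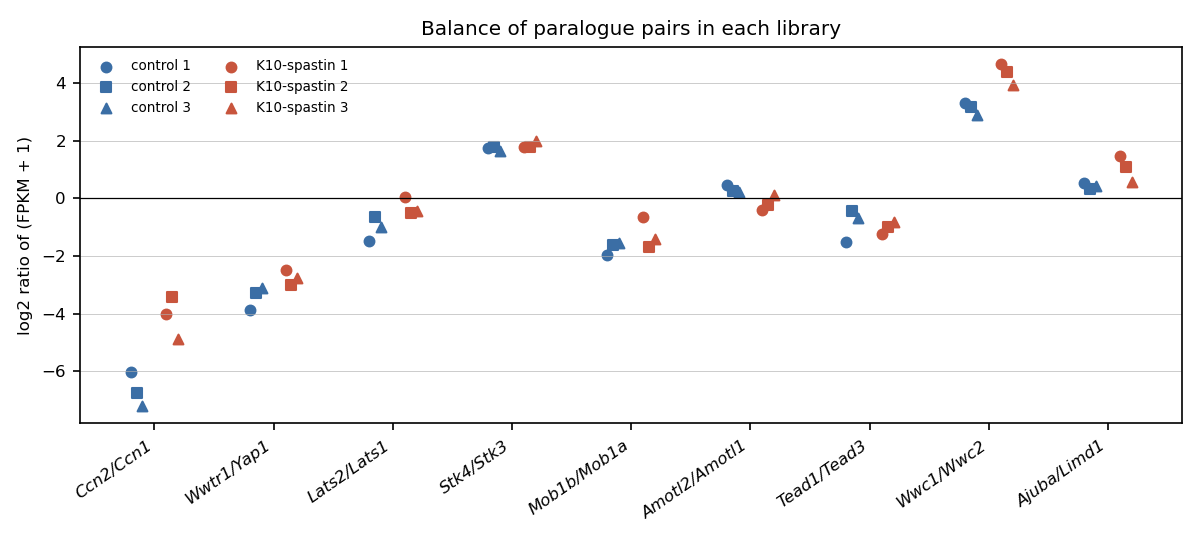
log2 ratio of (FPKM + 1) of 9 pairs of related genes in each library, with control and K10-spastin libraries as separate points. Ccn2/Ccn1 shows the widest gap between groups (−6.66 and −4.11 on average), and Tead1/Tead3 overlaps.

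A wider list of Hippo pathway genes, without the 35, held 64 tested genes of 73 matched. Of these 7 rose (10.9%) and 1 fell (1.56%), with a median change of 0.09, against 5.14% higher, 5.9% lower and a median of −0.09 over all tested genes. Ywhag, a 14-3-3 protein of the kind that holds phosphorylated YAP in the cytoplasm, rose by 0.85 ± 0.15, from 131 to 170 FPKM up to 239 to 298 FPKM (SE, limma adjusted p = 0.0174). Csnk1e, a casein kinase of the family that marks YAP for degradation, rose by 0.87 ± 0.17, from 28.8 to 36.0 FPKM up to 51.0 to 73.0 FPKM (SE, limma adjusted p = 0.0253). Map4k2, a kinase that can activate LATS, stood at 26.7, 26.9 and 30.5 FPKM and at 5.96, 10.4 and 13.5 FPKM, and fell by 1.47 ± 0.27 (SE, limma adjusted p = 0.0201). The 2 most abundant genes of the list, the 14-3-3 genes Sfn and Ywhaz, did not pass (changes 0.45 and 0.18). These calls leaned on the full set of controls: without control 1 there was 1 higher and 0 lower call, and without control 2 or control 3 there were 0 of either. Calls over all tested genes dropped as well, from 1222 to 449, 212 and 145 without control 1, 2 and 3. The Csnk1e call was also lost without K10-spastin 2 (limma adjusted p = 0.0544).

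A wider list of YAP/TAZ targets held 22 tested genes of 30, with 1 higher (4.55%), 3 lower (13.6%) and a median change of −0.23, against the same 5.14%, 5.9% and −0.09 over all tested genes. Fgf1, a growth factor, stood at 0.209, 0.919 and 1.35 FPKM in control libraries and at 16.0, 5.62 and 10 FPKM in the K10-spastin libraries, and rose by 2.61 ± 0.40 (SE, limma adjusted p = 0.0129). Thbs1, a matrix glycoprotein, stood at 9.28, 42.3 and 78.8 FPKM and at 0.921, 3.69 and 2.02 FPKM, and fell by 3.45 ± 0.72 (SE, limma adjusted p = 0.0289). Its levels followed the same order over the controls as Col1a1, Krt19 and Hbb-bt, given beside Ccn1, and the fibroblast collagen Col3a1 (0.517, 4.6 and 8.25 FPKM, and at most 0.191 FPKM in K10-spastin), whose part in the fall was not tested. Without K10-spastin 1 the Thbs1 call was lost (−3.13, limma adjusted p = 0.0614). Myc, the growth-promoting transcription factor, fell by 0.93 ± 0.18, from 102 to 144 FPKM down to 52.4 to 73.1 FPKM (SE, limma adjusted p = 0.0248). Birc2, an inhibitor of apoptosis, fell by 0.93 ± 0.19, from 21.1 to 23.4 FPKM down to 8.43 to 13.0 FPKM (SE, limma adjusted p = 0.0289). Areg, an EGF receptor ligand among the most abundant of the list, stood at 3.75, 38.0 and 36.8 FPKM and at 52.3, 31.1 and 35.6 FPKM, with control 1 far below the rest (change 1.05 ± 0.77, SE, limma adjusted p = 0.389). Control 1 was the lowest control for 16 of these 22 genes (72.7%). Without control 2 there were 0 calls in either direction, and without control 3 there were 1 higher and 0 lower. All tested genes had 212 and 145 calls in these 2 settings, against 1222 with every library. The Birc2 call was also lost without control 1 (limma adjusted p = 0.0777) and the Myc call without K10-spastin 2 (limma adjusted p = 0.0505). With no filter on low values there were 0 lower calls. Both this list and the 8 members held genes that rose and genes that fell.

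Some members overlap genes on the opposite strand in the GENCODE annotation, and the strandedness of counting was not given in the sources used here. Ccn2 overlaps Gm15270 by 347 bases, and Gm15270 was listed at 0 in every library. Wwc2 overlaps Cldn22 by 995 bases, Sav1 overlaps Atl1 by 1336, and Yap1 overlaps Gm20416 by 116. Crim1 overlaps Fez2 by 123 bases, and Fez2 stood at 4.70 to 6.24 FPKM in the controls and 5.65 to 10.9 FPKM in the K10-spastin libraries, above Crim1 in every library and highest, like Crim1, in K10-spastin 1. The other opposite-strand partners were at most 1.5 FPKM. Shorter overlaps, of 13 to 94 bases, join Tead2 to Cd37, Ptpn14 to Gm26574 and Taok1 to Abhd15. Lats2 shares exon sequence with Gm49361 on its own strand, and Frmd6 has a processed pseudogene copy, Gm5780, with 96.8% identity. For these genes, reads of the partner or copy cannot be told apart without strand or unique sequence.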

How the data were processed

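RNA from sorted suprabasal keratinocytes was sequenced in 3 control and 3 K10-spastin libraries. The deposited values are FPKM as the authors computed them, 1 column per library. CASAVA and TopHat2 are named per the submitters' processing notes; the counter, genome build, annotation and strandedness were not given in the sources used here. Symbols matched 34490 of 35275 identifiers and 785 were unmatched. Depth was read from steps between low values of 14953 genes with a single GENCODE M21 transcript; of values worth at most 20 fragments, 90.6% to 91.6% came out whole (tolerance 0.05). These depths describe precision only.

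Genes averaging 1 FPKM or more over the 6 libraries were tested on log2(FPKM + 1) with limma 3.58.1 in R 4.3.3 (lmFit, eBayes with a trend, two-sided, Benjamini-Hochberg). Since FPKM is not a count, no count test was used. The fit was checked on simulated data. No block was fitted for the replicate number, because no label ties it to a litter or day. Pairs and shares used exact permutation tests, two-sided, in Python 3.11.15 (numpy 2.4.6, pandas 2.3.3, scipy 1.17.1, matplotlib 3.10.9). Sequence copies were searched with BLAST 2.17.0. Promoters came from RefSeq (GRCm38.p6).

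The members and lists were chosen with earlier results of these data known. Full values were given for called members and, in each role, the 2 lowest by p and the 2 highest by mean FPKM; others are printed to account for every member. The wider lists name up to 4 called genes, lowest p first, and the 2 of highest mean FPKM. The values of 1 gene that this rule names are not reported here. Alternatives were other pseudocounts, filters, scalings, variance models, library weights, a replicate block and leaving out libraries.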

Additional observations from a re-analysis of the deposited data

How the results depend on the processing

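Tead4 and Igfbp3 kept their calls wherever they were tested, and Ccn2 did so in 7 of the 16 other settings in which it was tested. The number of members called higher was 2, and 1 with a pseudocount of 0.1, with no filter, with a mean of at least 5 FPKM (where Ccn2 was not tested), with the replicate block, or leaving out control 1 and K10-spastin 1 together; it was 4 with median-of-ratios scaling, 6 with array weights, and 1 to 2 leaving out each library. The number called lower was 1, 0 with a mean of at least 5 FPKM (where Igfbp3 was not tested), 2 with median-of-ratios scaling, quantile normalization or both first libraries out, 5 with array weights, and 1 to 3 leaving out each library. Calls over all 11071 tested genes rose too, from 1222 to 1450 with median-of-ratios scaling, 1495 with quantile normalization and 3306 with array weights.

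Some uncalled changes turned sign, among them 0.45 for F3 and 1.05 for Areg. With median-of-ratios scaling they were 0.01 for Lats1, 0.05 for Mob1a, 0.1 for Nf2 and 0.05 for Ptpn14. With array weights they were −0.07 for Tead1, 0.02 for Mob1a, 0.29 for Nf2, −0.56 for Crim1, −0.39 for F3 and −0.01 for Nuak2. With control 1 and K10-spastin 1 both out they were −0.1 for Tead1, 0.13 for Mob1a, 0.43 for Nf2, −0.52 for Crim1, −0.36 for F3 and −0.16 for Areg. Crim1 was −0.05 with a pseudocount of 0.1. Leaving out each library gave −0.23 to 0.32 for Tead1, −0.23 to 0.06 for Mob1a, −0.21 to 0.24 for Nf2, −0.22 to 0.19 for Ajuba, −0.36 to 0.42 for Crim1, −0.06 to 0.79 for F3, −0.14 to 0.36 for Nuak2 and −0.47 to 0.07 for the Tead1/Tead3 ratio. The cause was not tested.

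Over all genes, 1222 calls became 667 with no filter, 3306 with array weights, 492 with the replicate block, and 145 to 1382 leaving out each library. Deviations of libraries with the same number from their group means correlated at −0.128, −0.378 and −0.047. With 3 libraries a group, deviations within a group sum to 0. These values therefore cannot tell whether samples of the same number shared a litter or day. Depth limits the K10-spastin values of Igfbp3 and the values of Amot and Ankrd1, which lie near that of a few fragments.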
